A study of Mus musculus with 12 samples.

Results

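The genes of interleukins, chemokines and chemokine receptors were examined for accessible chromatin in activated neurons of the mouse prefrontal cortex. Members were all protein-coding genes whose symbol begins with Il, Ccl, Cxcl, Ccr or Cxcr followed by a digit, which gave 137 of the 21896 protein-coding genes of a RefSeq table for GRCm38.p6, the assembly also known as mm10. Of these members 136 could be scored, as could 21751 coding genes in all. Ccl21c, whose listed position lies below the first peak of its chromosome in every complete peak list, could not. By role, the scored members comprised 40 interleukin receptor genes, 38 interleukin genes, 36 chemokine ligand genes, 17 chemokine receptor genes, 3 genes of soluble inhibitors (Il1rn, Il18bp and Il22ra2) and the amino acid oxidase genes Il4i1 and Il4i1b.

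The assay was ATAC-seq, in which a transposase cuts DNA that is not covered by nucleosomes, so that a pile of cuts (a peak) marks accessible chromatin. Cells positive for the activity-induced protein Arc and the neuronal protein NeuN had been sorted from the infralimbic prefrontal cortex (ILPFC) of male C57BL/6 mice aged 10 to 12 weeks. Every mouse in both groups had first received 3 tone and foot shock pairings. The next day the extinction group (EXT) was given 60 tones without shock in another context, while the retention control group (RC) was kept in that context for an equal time and heard none, and tissue was taken directly afterwards. Each library was made from 50000 sorted cells of 5 pooled mice, so a replicate is a pool and p-values measure the spread between pools. Peak lists were used for EXT replicates 1 and 2 and RC replicates 1, 2 and 3, with 57.7 M to 73.8 M tags per library. EXT replicate 3, which the labels give as left out for low yield, and the 6 RNA capture libraries were not analysed here. The lists of EXT replicates 1 and 2 and RC replicate 3 cover the genome with 80735, 123375 and 97961 peaks. Those of RC replicates 1 and 2 break off on chromosome 1, so values over the whole genome set both EXT libraries beside a single RC library, with no test between the groups. Because each library is a bulk pool, a region that is open in few cells and one that is weakly open in most cells cannot be told apart.

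Interleukins and chemokines are small secreted proteins by which immune cells, glia and, in some settings, neurons signal to one another. Interleukins act through paired receptor chains, many of which share a common subunit and pass the signal to Janus kinases and STAT factors, or, in the IL-1 and IL-17 families, to adaptors that activate NF-kB. Chemokines act through G protein-coupled receptors and direct cell migration. In the healthy brain most of the inflammatory members are made at low levels, mainly by microglia and other non-neuronal cells, while some receptor chains and Cxcl12 with its receptor Cxcr4 are also used by neurons.

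Promoter sequence is shown for 9 members that illustrate the contrast between genes with and without a peak at the start, chosen after their values were seen. Each line gives the 250 bases before a start that RefSeq annotates on GRCm38.p6, written 5′ to 3′ in the direction of transcription, with capitals marking CG dinucleotides. Il6st, Il1rap, Il17rd and Il18 had a peak in the promoter window (250 bases before to 50 after the start) in all 3 complete lists, Il6 in 1, and Il13ra1, Cxcl1, Ccl3 and Il1b in none. The stretches lie at chr13:112463820-112464069 (plus strand) for Il6st, chr16:26581455-26581704 (plus) for Il1rap, chr14:27038751-27039000 (plus) for Il17rd, chr9:50554450-50554699 (plus) for Il18, chr5:30012864-30013113 (plus) for Il6, chrX:36111858-36112107 (plus) for Il13ra1, chr5:90890995-90891244 (plus) for Cxcl1, chr11:83649379-83649628 (minus) for Ccl3 and chr2:129371140-129371389 (minus) for Il1b.
Il6st: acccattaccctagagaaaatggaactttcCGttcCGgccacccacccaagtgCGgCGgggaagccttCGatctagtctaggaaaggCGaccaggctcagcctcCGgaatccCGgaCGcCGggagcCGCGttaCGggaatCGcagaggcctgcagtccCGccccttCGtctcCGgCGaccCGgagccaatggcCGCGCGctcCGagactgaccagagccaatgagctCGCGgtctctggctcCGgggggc
Il1rap: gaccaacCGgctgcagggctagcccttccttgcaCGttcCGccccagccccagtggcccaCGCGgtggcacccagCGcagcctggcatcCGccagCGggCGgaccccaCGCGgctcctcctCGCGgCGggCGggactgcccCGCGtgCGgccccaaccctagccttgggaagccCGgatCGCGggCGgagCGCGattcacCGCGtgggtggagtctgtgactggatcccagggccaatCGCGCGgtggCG
Il17rd: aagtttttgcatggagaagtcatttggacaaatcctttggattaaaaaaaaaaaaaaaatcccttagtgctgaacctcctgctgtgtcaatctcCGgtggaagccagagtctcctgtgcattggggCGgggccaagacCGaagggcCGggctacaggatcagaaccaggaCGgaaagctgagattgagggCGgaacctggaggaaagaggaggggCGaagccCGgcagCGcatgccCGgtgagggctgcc
Il18: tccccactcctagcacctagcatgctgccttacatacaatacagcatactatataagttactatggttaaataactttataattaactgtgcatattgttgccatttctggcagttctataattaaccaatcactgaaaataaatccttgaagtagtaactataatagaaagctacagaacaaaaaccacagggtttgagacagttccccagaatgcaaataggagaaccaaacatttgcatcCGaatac
Il6: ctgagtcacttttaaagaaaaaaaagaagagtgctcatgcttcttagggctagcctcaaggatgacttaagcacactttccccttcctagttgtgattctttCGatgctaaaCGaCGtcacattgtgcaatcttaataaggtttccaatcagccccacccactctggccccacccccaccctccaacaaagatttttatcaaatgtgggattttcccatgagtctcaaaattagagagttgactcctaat
Il13ra1: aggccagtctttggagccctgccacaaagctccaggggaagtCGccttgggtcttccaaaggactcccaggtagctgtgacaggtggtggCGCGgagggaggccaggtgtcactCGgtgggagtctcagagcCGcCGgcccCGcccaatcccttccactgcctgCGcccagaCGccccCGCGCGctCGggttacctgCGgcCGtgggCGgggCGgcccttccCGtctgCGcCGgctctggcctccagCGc
Cxcl1: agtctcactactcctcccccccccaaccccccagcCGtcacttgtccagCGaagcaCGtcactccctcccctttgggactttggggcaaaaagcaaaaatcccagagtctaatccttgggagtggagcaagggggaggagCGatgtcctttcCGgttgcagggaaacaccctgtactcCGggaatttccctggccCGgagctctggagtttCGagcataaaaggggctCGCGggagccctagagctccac
Ccl3: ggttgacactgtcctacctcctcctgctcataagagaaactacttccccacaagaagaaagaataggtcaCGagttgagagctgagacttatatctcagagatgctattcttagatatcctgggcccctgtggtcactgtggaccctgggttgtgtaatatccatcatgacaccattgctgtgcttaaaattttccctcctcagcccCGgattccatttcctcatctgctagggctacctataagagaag
Il1b: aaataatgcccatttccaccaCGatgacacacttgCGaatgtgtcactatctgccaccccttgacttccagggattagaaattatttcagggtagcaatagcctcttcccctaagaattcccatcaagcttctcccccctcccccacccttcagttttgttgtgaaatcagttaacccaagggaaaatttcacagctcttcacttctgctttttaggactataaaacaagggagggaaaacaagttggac
The receptor chains Il6st and Il1rap carry 26 and 30 CG dinucleotides in these 250 bases, and Il13ra1, which has no peak here, carries 21. Il17rd and Cxcl1 carry 10 each, while Il6 has 3, Ccl3 and Il1b have 2 each and Il18 has 1.

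Accessible ends were less frequent among the members than among protein-coding genes as a whole. An end peak was any peak sharing 1 bp or more with the 2 windows that reach 1 kb to both sides of the lower and the upper gene boundary. In EXT replicate 1, 36 of 136 members had one, or 26.5% (exact 95% binomial interval 19.3 to 34.7%), beside 53.7% of all coding genes. In EXT replicate 2 there were 60, or 44.1% (35.6 to 52.9%), beside 61.5%. In RC replicate 3 there were 45, or 33.1% (25.3 to 41.7%), beside 56.4%. RC replicate 3 thus lay between the EXT libraries, as for all coding genes, and the mean of the EXT shares exceeded the RC share by 2.206 percentage points, less than the SD of 12.5 between the EXT libraries (n = 2). It was 11.03 without EXT replicate 1 and -6.62 without EXT replicate 2, so its sign rests on which EXT library is kept. With the lists cut to equal length it was -0.368, with end peaks at 36 and 49 members in EXT replicates 1 and 2 and 43 in RC replicate 3. The intervals cover counting error only and treat genes as separate, although many members are neighbours. In a bulk list a gene without a peak is one where none passed the q-value cutoff of 0.05, and it may still hold some cuts.

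Peaks inside the gene span were more frequent than end peaks in each list. They were found in 63 members in EXT replicate 1 (46.3%, beside 66.9% of coding genes), 72 in EXT replicate 2 (52.9%, beside 72.6%) and 67 in RC replicate 3 (49.3%, beside 69.4%). Members were shorter than coding genes in general, with a median span of 8.78 kb against 17.2 kb. Among genes of up to 5 kb the shares with an end peak were close to those of all coding genes of that length, at 29.3% of members against 31.8% in EXT replicate 1, 39.0% against 37.1% in EXT replicate 2 and 34.1% against 34.4% in RC replicate 3. Among genes of 5 to 20 kb the gap was wide, at 23.2% against 57.0%, 46.4% against 64.8% and 32.1% against 59.7% in the same order of lists. It was wide as well from 20 to 60 kb, at 33.3% against 61.4%, 48.1% against 70.2% and 40.7% against 64.5%. Over 60 kb there were only 12 members, of which 2, 5 and 2 had an end peak. These shares were 16.7% against 63.4%, 41.7% against 73.1% and 16.7% against 65.7%.

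Taken over the 3 complete lists, the members fell into 4 classes. An end peak in all 3 lists was found for 30 members (22.1%, beside 49.3% of coding genes), in 1 or 2 lists for 36, and in none for 70 (51.5%, beside 35.1%). Of those 70, 27 had a peak inside the span in at least 1 list (19.9%, beside 12.2%) and 43 had no peak of either kind (31.6%, beside 22.9%). Interleukin receptors made up 13 of the 30 and only 4 of the 43, while interleukins made up 6 and 17, chemokine ligands 8 and 14, and chemokine receptors 2 and 7. The receptor genes were also the longest, with a median of 33.8 kb against 6.4 kb for interleukins, 3.66 kb for chemokine ligands and 7.22 kb for chemokine receptors. A longer span gives more room for a peak inside it.

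**Figure D1:**
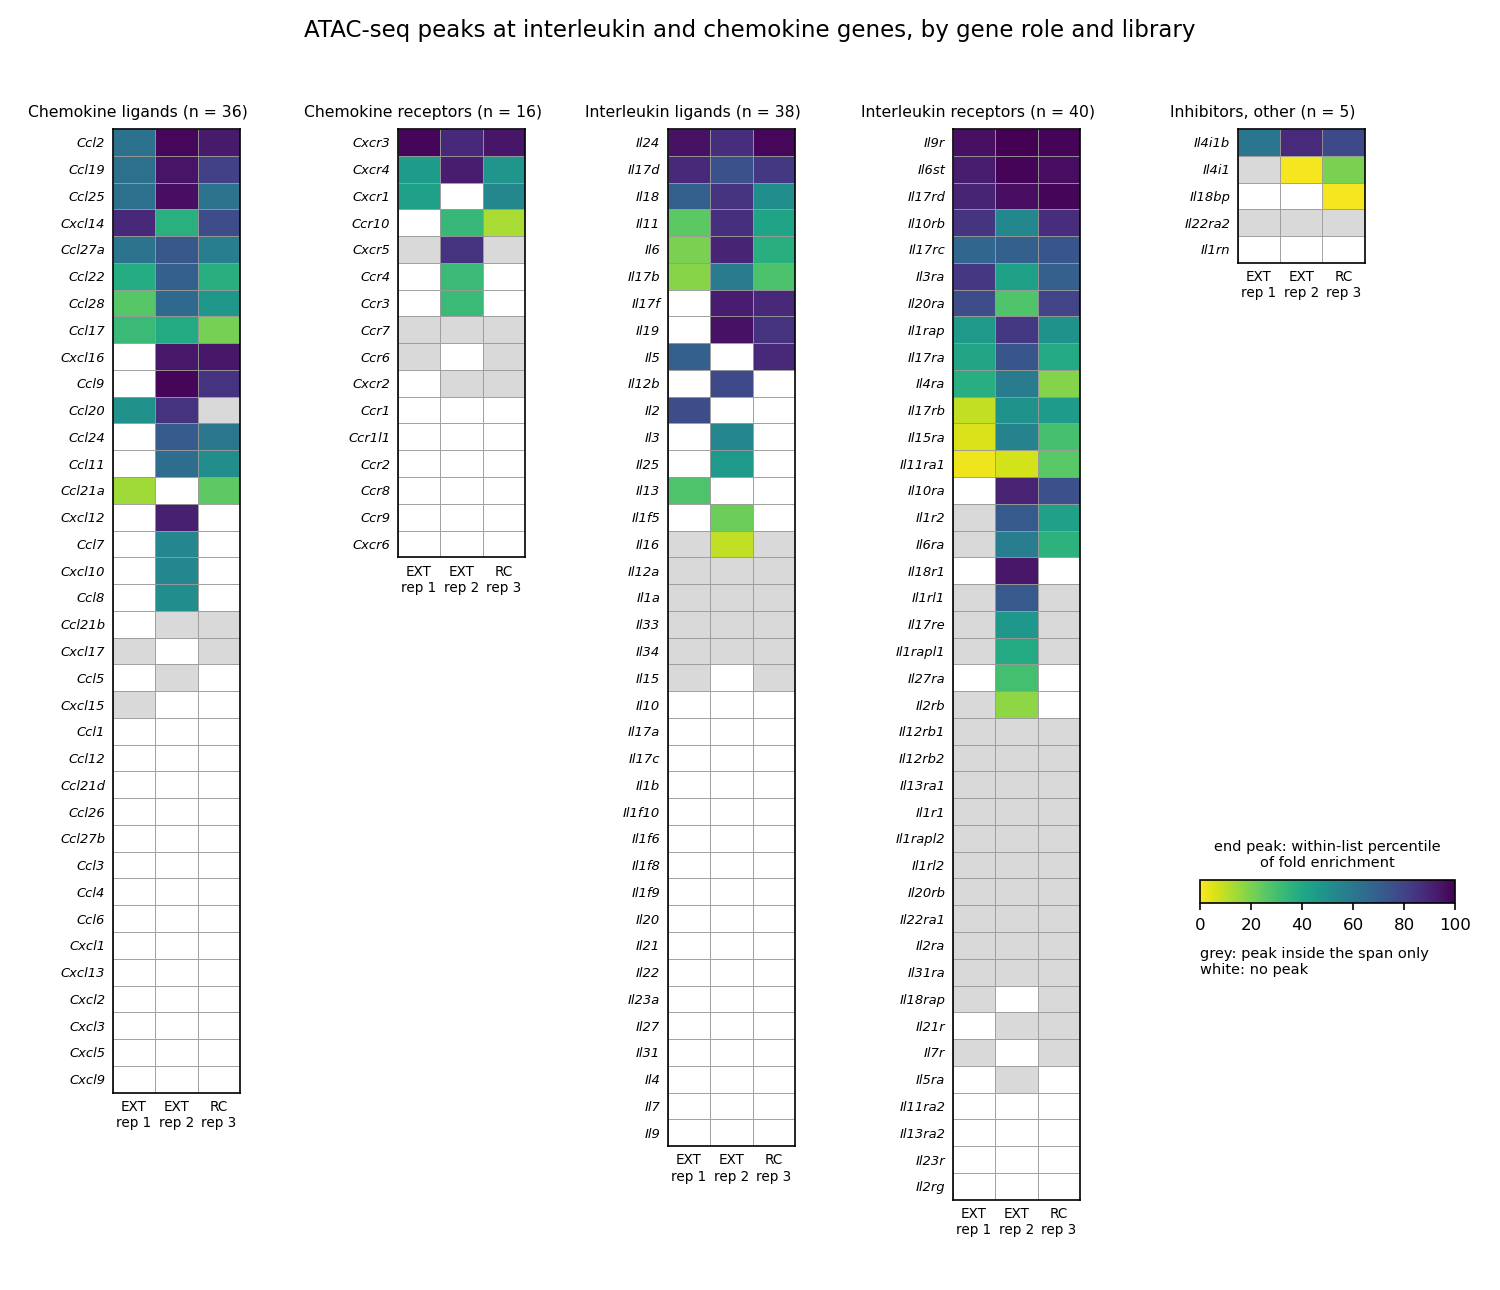
Scored members (rows, grouped by role; 1 is not drawn) in the 3 complete lists (columns). Colour gives the within-list percentile of the fold enrichment of the best end peak, on a scale of 0 to 100, grey marks a peak inside the span only, and white marks no peak. Fully coloured rows stand at the top of each panel, and the white block at the foot is longest for the interleukins (17 of 38) and chemokine ligands (14 of 36).

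**Figure D2:**
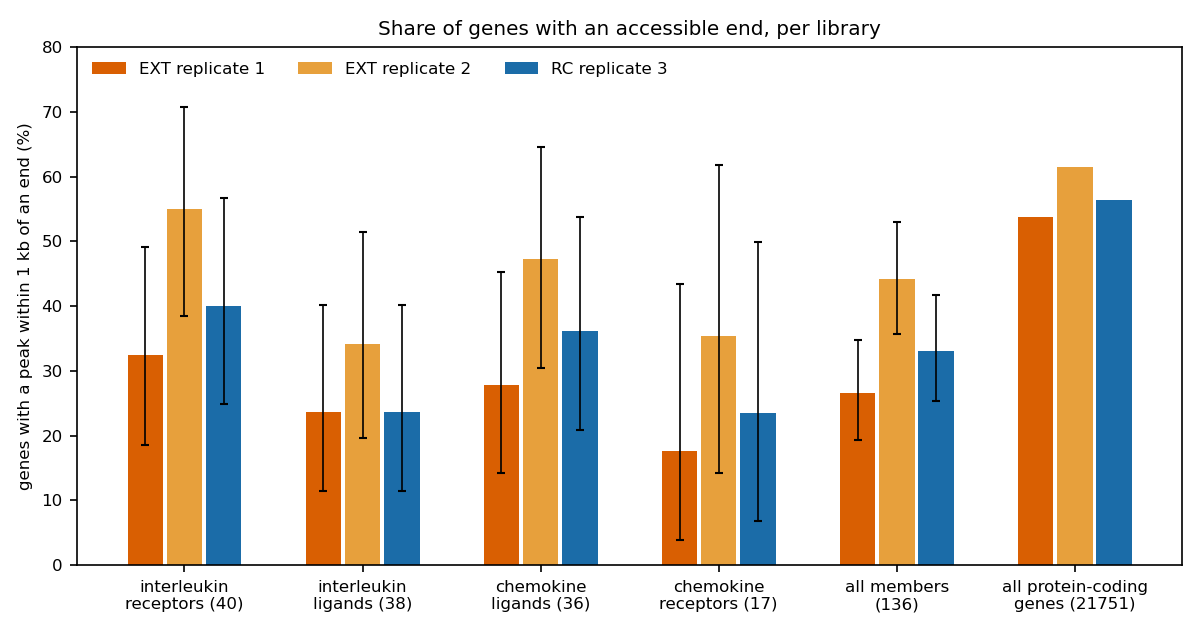
Share of genes with an end peak (percent, vertical axis) by role in EXT replicate 1, EXT replicate 2 and RC replicate 3, with the number of genes in brackets. Bars are values of single libraries and lines are exact 95% binomial intervals, which are not drawn for all protein-coding genes. The 4 roles drawn lie below all coding genes in each library, with the highest bar in EXT replicate 2; inhibitors and the Il4i1 genes, with few members, are not drawn.

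Interleukin receptors had end peaks more often than interleukins in each list. Counts were 13, 22 and 16 of 40 receptor genes in EXT replicate 1, EXT replicate 2 and RC replicate 3 (32.5, 55.0 and 40%), against 9, 13 and 9 of 38 interleukins (23.7, 34.2 and 23.7%). The binomial intervals of these roles overlap in each list. Both roles lay below the 53.7, 61.5 and 56.4% of all coding genes with an end peak. Peaks inside the span were seen in 31, 34 and 32 receptor genes (77.5, 85 and 80%), above the 66.9, 72.6 and 69.4% of all coding genes, and the receptor genes are also longer.

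Il6st, which encodes gp130, the signalling chain shared by the receptors of IL-6, IL-11 and related cytokines, had one of the strongest peaks. The fold enrichment over local background, as the authors' peak caller gave it, was 8.11 in EXT replicate 1, 15.5 in EXT replicate 2 and 10.2 in RC replicate 3. Folds belong to their own list and are not compared between libraries. Within its list the peak stood at percentile 92.5, 99.0 and 96.6. It ran from 112463890 to 112464282 on chromosome 13 in EXT replicate 1, from 112463654 to 112464384 in EXT replicate 2 and from 112463842 to 112464282 in RC replicate 3, across the start of the gene (chr13:112464070-112506860) and most of the CG-rich stretch printed above. No other coding gene has an end in this region. Il17rd, a receptor-like membrane protein of the IL-17 receptor family that is also known to dampen fibroblast growth factor signalling, had 2 end peaks near its start in each list. The peak across the start ran from 27038797 to 27039112 on chromosome 14 in both EXT replicate 1 and RC replicate 3, with folds of 4.91 and 5.78, while that of EXT replicate 2 spanned 27038788 to 27039171 and had a fold of 12.2. The second began at 27039523 in all 3 lists, was 160 bp wide in EXT replicate 1 and RC replicate 3 (folds 7.41 and 12.3) and 150 bp wide in EXT replicate 2 (fold 3.84). The peak across the start was thus the higher in EXT replicate 2 and the narrow one in the other lists.

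Il9r, the specific chain of the interleukin 9 receptor, had the end peak with the highest mean percentile over the 3 lists (98.3), with folds of 9.55, 19.6 and 13.3 in EXT replicate 1, EXT replicate 2 and RC replicate 3. This peak also lay at an end of Snrnp25, the gene of a minor spliceosome protein. It touched the upper end of Il9r (chr11:32187544-32205283, minus strand), but the start that RefSeq annotates in the promoter table lies inside the gene and had no peak within 1 kb in any list. Il10rb, the chain shared by the receptors of IL-10 and IL-22, likewise shared its end peak, with the interferon receptor gene Ifnar2, at folds of 6.36, 4.59 and 7.14. Il17rc, a chain of the receptor for IL-17A and IL-17F, had a peak across its upper boundary, opposite the annotated start, in each list. This Il17rc peak also touched an end of Creld1, and its fold was 4.64, 5.81 and 5.01 in the same order of lists. The best Il17rc end peak of RC replicate 3 was a different one (fold 5.35). That one was 161 bp wide, lay near the lower boundary and touched no other coding gene. Il3ra, the specific chain of the interleukin 3 receptor, had one 160 bp peak with the same bounds in each list (chr14:14354973-14355132), with folds of 6.29, 4.06 and 5.12. It lay at the upper end of the gene, opposite the annotated start. A peak within 1 kb of that start was found in EXT replicate 2 and RC replicate 3 only.

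The other receptor chains with an end peak in all 3 lists were Il1rap, the co-receptor that every IL-1, IL-33 and IL-36 receptor needs for signalling, Il17ra, the common chain of the IL-17 receptors, Il4ra, Il15ra, Il11ra1, Il17rb and Il20ra. For Il1rap the best end peak had folds of 3.56, 7.72 and 3.82 in EXT replicate 1, EXT replicate 2 and RC replicate 3, and in each list it spanned the whole printed stretch. By contrast Il4ra had its EXT replicate 2 peak at the start (fold 4.89) and those of EXT replicate 1 and RC replicate 3 beyond the other end of the gene (folds 3.31 and 2.80), so a count of 3 lists need not refer to the same region. Il11ra1 has a near-identical copy, Il11ra2, which had no peak. The sources used here do not state how reads were split between such copies, so both are uncertain.

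Receptor genes without an end peak include several that define lymphocyte responses. Il2ra, the high-affinity chain of the interleukin 2 receptor, and Il7r had peaks inside the span only, and Il2rg, the common gamma chain, and Il23r had no peak in any complete list. Il1r1, the signalling receptor of IL-1, had no end peak but had 1, 2 and 3 peaks inside its span in EXT replicate 1, EXT replicate 2 and RC replicate 3. One of them was shared by all lists, with folds of 4.02, 12.4 and 4.91 within chr1:40235591-40236243. Il13ra1, a chain of the receptor for IL-4 and IL-13, had a CG-rich promoter and 1 peak inside its span in each list, but none at an end.

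Among the interleukins, 6 had an end peak in all 3 lists. Il17d, a member of the IL-17 family (chr14:57524829-57543166), had a broad peak inside the gene that began within 1 kb of its start (chr14:57525421-57526243 when merged over the lists). This peak was 823 bp wide in EXT replicate 1, 735 bp in EXT replicate 2 and 573 bp in RC replicate 3. Its folds were 7.10, 6.35 and 6.51, with a pileup of 142, 165 and 158 tags at its summit. The annotated start itself was crossed only by a separate 150 bp peak of RC replicate 3 (fold 2.12). Il18, an IL-1 family cytokine that is processed by caspase-1, had folds of 4.83, 8.0 and 3.90. Its peaks began at 50554729, 50554683 and 50554744 on chromosome 9, close to the annotated start at 50554700, and so lie just downstream of the printed stretch or reach only its last bases. The same peaks also lie at an end of Bco2. Il6, a central inflammatory cytokine, was described after its values were seen. Its end peak had folds of 2.90, 9.24 and 3.32 and began at 30013226, 30013153 and 30013183 on chromosome 5, inside the gene (chr5:30013114-30019975). Within its list it stood at percentile 20.2, 90.0 and 36.8, so it ranked high only in EXT replicate 2.

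Il24, a member of the IL-10 family, had the same 160 bp peak (chr1:130880916-130881075) in every complete list, with folds of 9.37, 8.45 and 11.5, and RC replicate 1 had it too (fold 4.43). That peak also lies at an end of Fcmr, the gene of an immunoglobulin M receptor. Il11 and Il17b also belong to this class, with folds of 3.02, 8.27 and 3.47 for Il11, whose peak also touched the ends of Tmem190 and Tmem238. Another 10 interleukins had an end peak in 1 or 2 lists: Il12b, Il13, Il16, Il17f, Il19, Il1f5, Il2, Il25, Il3 and Il5. The 17 with no peak in any complete list include Il1b, the main secreted IL-1 of inflammation, the anti-inflammatory Il10, and the T helper cell cytokines Il4, Il9, Il17a, Il21 and Il22. Il1a had no end peak but had the same 160 bp peak inside the span (chr2:129308405-129308564) in each complete list, with folds of 11.1, 7.11 and 12.4.

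Il33, an alarmin of glial nuclei, and Il34, a neuron-derived ligand of the microglial CSF-1 receptor, had no end peak in any complete list but did have peaks inside their spans. Il33 had 2, 3 and 2 peaks inside its span in EXT replicate 1, EXT replicate 2 and RC replicate 3. Il34 had 5, 9 and 8, and 4 of its merged regions were present in all 3 lists, among them a 161 bp region with folds of 13.1, 5.30 and 12.0. The Il34 peaks amounted to a mean of 1.14 per 10 kb of the gene (chr8:110741829-110805949), close to the 1.12 per 10 kb of Il17rd.

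An end peak was found at 10, 17 and 13 of 36 chemokine ligand genes in EXT replicate 1, EXT replicate 2 and RC replicate 3. These shares were 27.8, 47.2 and 36.1%, beside 53.7, 61.5 and 56.4% of all coding genes. Of these genes 8 had one in all 3 lists. Ccl2, which attracts monocytes, had the highest mean percentile over the lists among them (84.7), though not the highest in EXT replicate 1, with folds of 4.34, 14.1 and 8.52, and its peaks ended at the same base, 82035778 on chromosome 11, in all lists. It was 160 bp wide in EXT replicate 1, 416 bp in EXT replicate 2 and 268 bp in RC replicate 3. Ccl19, a ligand of the lymphoid homing receptor Ccr7, had folds of 4.38, 11.2 and 6.21, and Cxcl14, a chemokine also made by some cortical interneurons, had 7.08, 3.73 and 5.78. The best Ccl19 peak was at the lower end of the gene, opposite the annotated start, in each list. Only RC replicate 3 had a peak within 1 kb of the Ccl19 start. The best Cxcl14 peak was at the upper end of the gene, where the annotated start lies, in EXT replicate 2, and at the opposite end in EXT replicate 1 and RC replicate 3. The Ccl25 peak, with folds of 4.37, 12.2 and 4.50, spanned the lower end of the gene and also an end of Elavl1, the gene of the RNA-binding protein HuR. Ccl17, Ccl22, Ccl27a and Ccl28 completed the set.

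Cxcl12, the ligand of Cxcr4 and a regulator of neuronal migration, had an end peak in EXT replicate 2 alone. It had a fold of 9.65 and covered the annotated start (chr6:117168509-117168783). The neutrophil attractants Cxcl1, Cxcl2, Cxcl3 and Cxcl5 and the macrophage chemokines Ccl3 and Ccl4 had no peak in any complete list. Cxcl9 and the B cell attractant Cxcl13 had none either, and Cxcl10 had an end peak in EXT replicate 2 alone (fold 4.62).

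Among the 17 chemokine receptors, 3, 6 and 4 had an end peak in EXT replicate 1, EXT replicate 2 and RC replicate 3. These shares were 17.6, 35.3 and 23.5%, beside 53.7, 61.5 and 56.4% of all coding genes. In all 3 lists 2 receptors had one. At Cxcr4 (chr1:128588199-128592299, minus strand), the receptor of Cxcl12, the best end peak had folds of 3.54, 9.97 and 3.76. It lay beyond the upper end of the gene, on the side of the start, and was 176, 644 and 556 bp wide. Cxcr3, the receptor of Cxcl9 and Cxcl10 on T cells, had the same 160 bp peak inside the gene in all lists (chrX:101732487-101732646), with folds of 11.9, 8.89 and 8.96, and no peak within 1 kb of the annotated start. Ccr1 and Ccr2, receptors of monocytes and macrophages, had no peak, and neither had Ccr1l1, Ccr8, Ccr9 or Cxcr6. The inhibitor genes had 0, 0 and 1 end peaks: Il1rn, the IL-1 receptor antagonist, had no peak, and Il18bp had one in RC replicate 3 alone (fold 2.17, shared with Numa1).

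Several of the strongest member peaks were narrow, a feature noticed after the lists were seen. Widths of 150, 160 and 161 bp are common in every list, and a peak of 165 bp or less was called narrow here. In EXT replicate 1, 15 of 42 member end peaks were narrow (35.7%, beside 21.1% of the end peaks of all coding genes), in EXT replicate 2, 16 of 74 (21.6%, beside 15.5%), and in RC replicate 3, 17 of 54 (31.5%, beside 22%). With narrow peaks left out, 25, 49 and 33 members kept an end peak (18.4, 36 and 24.3%, beside 47.0, 56.7 and 49.3% of coding genes), and 21 kept one in all 3 lists (15.4%, beside 43.1%). Il24, Il10rb and Cxcr3 had narrow end peaks only. The medians of narrow member end peaks were the higher, at a fold of 4.83 against 3.51 for wider ones in EXT replicate 1, 6.31 against 4.89 in EXT replicate 2 and 6.79 against 3.69 in RC replicate 3. Over the end peaks of all coding genes the narrow ones were the lower, at 4.28 against 4.34, 4.13 against 5.85 and 4.43 against 4.62 in the same order of lists. Over all peaks of each list they were the higher, as in the members, at 4.78 against 3.39, 4.92 against 4.17 and 5.01 against 3.36. Narrow peaks made up 38.2, 31.2 and 40.8% of all peaks, a larger share than of member end peaks. High narrow peaks are thus not particular to the members. The difference between members and coding genes was not tested. What makes peaks narrow was not tested. Sharing with a neighbour was counted for members only, without the like share over all coding genes, so it cannot be called particular to them. In EXT replicate 1, every end peak touched an end of another coding gene for 8 of 36 members. The same held for 13 of 60 in EXT replicate 2 and 12 of 45 in RC replicate 3. Of the 30 members with an end peak in every list this held in each list for 7: Il9r, Il18, Il24, Il11, Il10rb, Ccl25 and Il4i1b.

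The 6 members with most peaks inside their spans were Il1rap, Il1rapl1, Il17rd, Il34, Il16 and Il15ra. Il1rapl1, an IL-1 receptor-like protein of synapses and a gene of X-linked intellectual disability in humans, had 6, 11 and 9 over 1380 kb, or a mean of 0.063 per 10 kb. Il1rap had 6, 11 and 10 over 149 kb, or 0.606 per 10 kb. Il17rd had 7, 8 and 8, Il16, a ligand of CD4, had 5, 8 and 7, and Il15ra, the chain that presents IL-15, had 3, 7 and 5. Per length Il15ra stood highest of these, at 1.74 peaks per 10 kb. One region of Il1rapl1 was picked with its values known: the same bounds, chrX:87238286-87238491, recurred in all lists, with folds of 49.0, 57.5 and 53.8 and pileups of 470, 930 and 912 tags. Il31ra, the receptor chain for IL-31, held a similar region (chr13:112578108-112578374 in EXT replicate 1 and RC replicate 3, and 1 base longer in EXT replicate 2), with folds of 41.2, 45.8 and 42. Both regions lie inside the span and stood at percentile 100 of each list when rounded. Peaks were not checked here against mappability or blacklist tracks, and what these 2 high folds measure is uncertain.

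**Figure D3:**
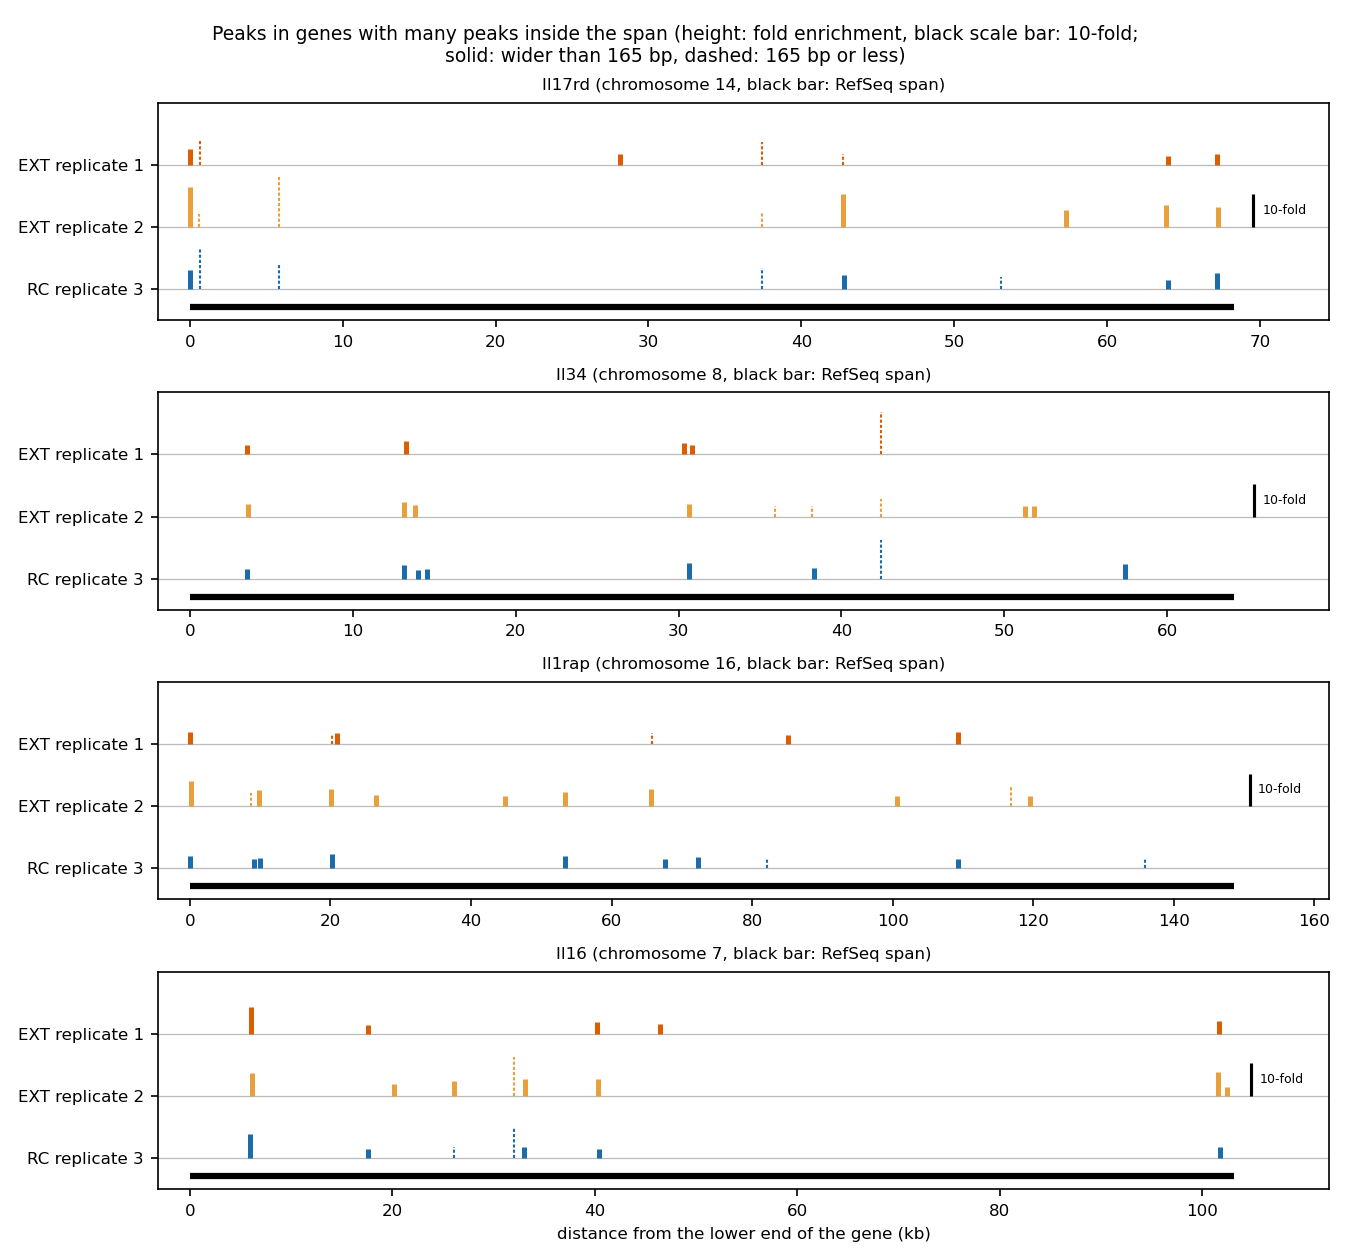
Peaks of EXT replicate 1, EXT replicate 2 and RC replicate 3 along Il17rd, Il34, Il1rap and Il16, by distance from the lower end of the gene (kb). Line height is fold enrichment within the list, with a black scale bar of 10-fold, solid lines are peaks wider than 165 bp and dashed lines narrower ones. Il17rd and Il1rap have a peak at their lower end in all 3 lists, and Il34 has peaks inside the span only.

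Merging overlapping peaks of the complete lists gave 286 regions at or in the members, of which 74 were in all 3 lists (25.9%, where the regions of all coding genes gave 27.6%). EXT replicate 2 alone held 88 (30.8%, against 28.1%), RC replicate 3 alone 23 (8.04%, against 11.5%) and EXT replicate 1 alone 22 (7.69%, against 9.77%). The EXT libraries shared 7 that RC replicate 3 lacked (2.45%, against 4.22%). RC replicate 3 shared 45 with EXT replicate 2 alone (15.7%, against 12.6%) and 27 with EXT replicate 1 alone (9.44%, against 6.13%), so the order of these pairs was the same as over all coding genes.

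Many of the members without a peak are neighbours. Runs of at least 3 members with gaps of up to 200 kb formed 10 clusters with 49 scored members, which left 87 isolated. Of the clustered members 8, 15 and 11 had an end peak in EXT replicate 1, EXT replicate 2 and RC replicate 3 (16.3, 30.6 and 22.4%), against 28, 45 and 34 of the isolated ones (32.2, 51.7 and 39.1%). Of all coding genes 53.7, 61.5 and 56.4% had one, above both sets in each list. No peak of either kind was found for 26 clustered members (53.1%), against 17 isolated ones (19.5%). The share over all coding genes was 22.9%, so the isolated members lay near it. Clustered members were also shorter, with a median of 5.45 kb against 12.7 kb, and neighbours are not independent of each other.

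The Cxcl5, Cxcl3, Cxcl15, Cxcl1 and Cxcl2 cluster of neutrophil and related chemokines on chromosome 5 had no end peak in any complete list. Its 147 kb held 1, 2 and 2 peaks in EXT replicate 1, EXT replicate 2 and RC replicate 3, and that of EXT replicate 1 lay inside Cxcl15. In peaks per 100 kb this was 0.68, 1.36 and 1.36, against 3.04, 4.64 and 3.69 over the genome. The IL-1 family cluster of Il1f8, Il1f9, Il1f6, Il1f5, Il1f10 and Il1rn on chromosome 2 was emptier still. Over 198 kb it had 0, 2 and 0 peaks, and its one end peak was that of Il1f5, the IL-36 receptor antagonist, in EXT replicate 2 (fold 3.20, 150 bp wide). Both clusters thus lay below the genome density in every complete list.

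Ccr3, an eosinophil receptor in a cluster on chromosome 9, had an end peak in EXT replicate 2 alone (fold 3.56), and its neighbours Ccr9, Cxcr6, Ccr1, Ccr1l1 and Ccr2 had no peak of either kind. On chromosome 11 the Ccl5, Ccl9, Ccl6, Ccl3 and Ccl4 cluster held 2, 3 and 2 peaks over 139 kb. Ccl9 had its narrow end peak in EXT replicate 2 (fold 14.8) and RC replicate 3 (fold 6.79). The Ccl2, Ccl7, Ccl11, Ccl12, Ccl8 and Ccl1 cluster held 2, 6 and 3 peaks over 144 kb, with end peaks at 1, 4 and 2 genes. Ccl2 was the member with one in each list. Ccl11, the eosinophil attractant eotaxin, had one in EXT replicate 2 (fold 5.33) and RC replicate 3 (fold 3.90), and Ccl7 and Ccl8 in EXT replicate 2 alone.

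The remaining clusters varied in peak density. The T helper 2 cytokine locus of Il4, Il13 and Il5 on chromosome 11 held 9, 10 and 5 peaks over 113 kb in EXT replicate 1, EXT replicate 2 and RC replicate 3, or 7.96, 8.85 and 4.42 per 100 kb, above the genome density in each list. Its end peaks were few: Il13 had one in EXT replicate 1 (fold 3.06), Il5 had a 160 bp peak in EXT replicate 1 (fold 4.83) and RC replicate 3 (fold 7.37), and Il4 had none. The locus counts take in all DNA between these genes. In EXT replicate 2 no peak lay inside Il4, Il13 or Il5 or within 1 kb of their ends. The IL-1 receptor family cluster on chromosome 1 (Il1r2, Il1r1, Il1rl2, Il1rl1, Il18r1 and Il18rap) held 11, 12 and 11 peaks over 467 kb, or 2.36, 2.57 and 2.36 per 100 kb, below the genome density in each list, with end peaks at 0, 3 and 1 genes, and each of its members had a peak in at least 1 list. The Il24, Il20, Il19 and Il10 cluster had end peaks at 1, 2 and 2 genes and 2.8, 4.9 and 4.2 peaks per 100 kb, below the genome in EXT replicate 1 and above it in the other lists. On chromosome 4, Il11ra1, Ccl27a and Ccl21d had 2 genes with an end peak in each list, and Ccl27b, Il11ra2, Ccl19 and Ccl21a had 2, 1 and 2. These chromosome 4 genes include near-identical copies (Ccl21a with Ccl21b and Ccl21d, Ccl27a with Ccl27b, Il11ra1 with Il11ra2), so their values are uncertain.

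**Figure D4:**
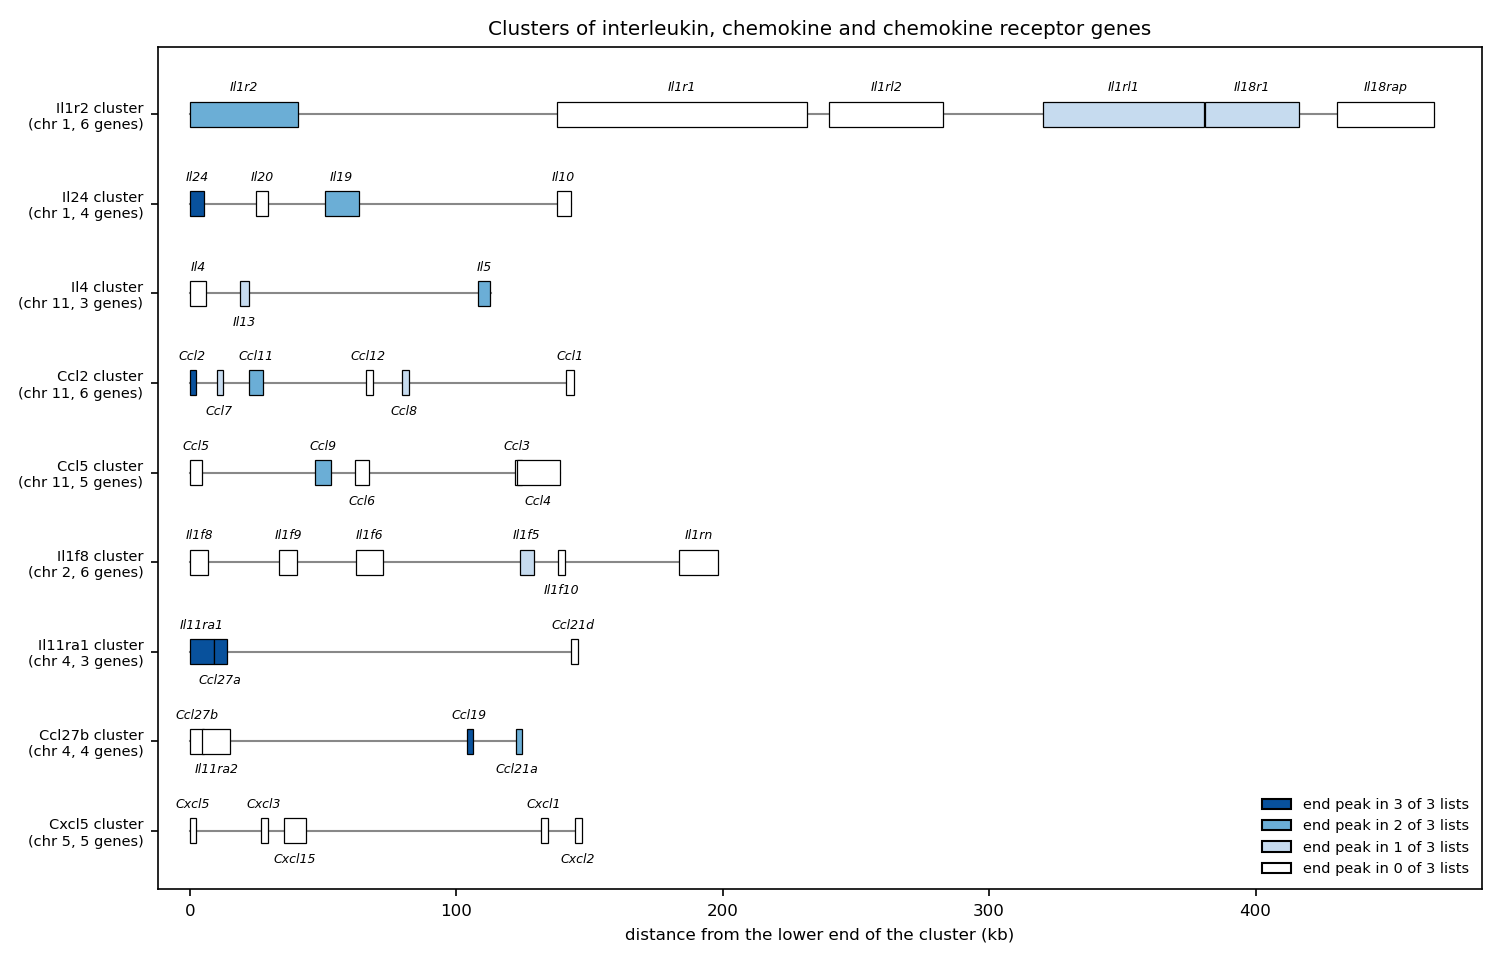
Of the 10 clusters, 9 drawn to scale, by distance from the lower end of each cluster (kb). Boxes are member genes, and darker shading marks an end peak in more of the 3 complete lists. The Cxcl5 cluster is white throughout, and the Il1f8 cluster has 1 shaded gene.

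Promoter windows could be scored for 105 members with a RefSeq entry. A peak within 1 kb of an annotated start was found for 19 of these in EXT replicate 1 (18.1%, beside 53.7% of 17479 coding genes), 31 in EXT replicate 2 (29.5%, beside 60.1%) and 19 in RC replicate 3 (18.1%, beside 55.5%). In all 3 lists it was found for 14 (13.3%, beside 50.0%). The distance between members and coding genes was thus larger at starts, over these 105 members, than at ends of either kind over all 136.

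CG dinucleotides were scarce in member promoters. Of 127 windows 66 (52.0%) held 4 or fewer, against 28.4% of the windows of all coding genes, and 13 (10.2%) held 20 or more, against 35.9%. The 10 windows with a peak in all 3 lists, which belong to 9 genes, had a median of 17.5 CG, the 15 with a peak in 1 list had 10.0, and the 100 with no peak had 4.0. Windows of all coding genes had medians of 23.0 with a peak in all lists and 4.0 with none. Among windows of like CG count, from 5 CG upward, member windows had a peak in all lists less often. The shares were 0.0% against 13.2% at 5 to 9 CG and 26.3% against 55.2% at 10 to 19. At 20 or more they were 30.8% against 68.8%. These rest on 29, 19 and 13 member windows. At 4 or fewer CG, with 66 member windows, the shares were close, at 1.52% against 2.17%. The shares with no peak in any list were close at 20 or more CG, at 15.4% against 13.2%. Exceptions ran both ways, with Il18 open at 1 CG in its window, and Il13ra1 and Ccl21b without a peak in theirs at 28 and 45. Ccl21b is one of the near-identical chromosome 4 copies, so its lack of a peak is uncertain.

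**Figure D5:**
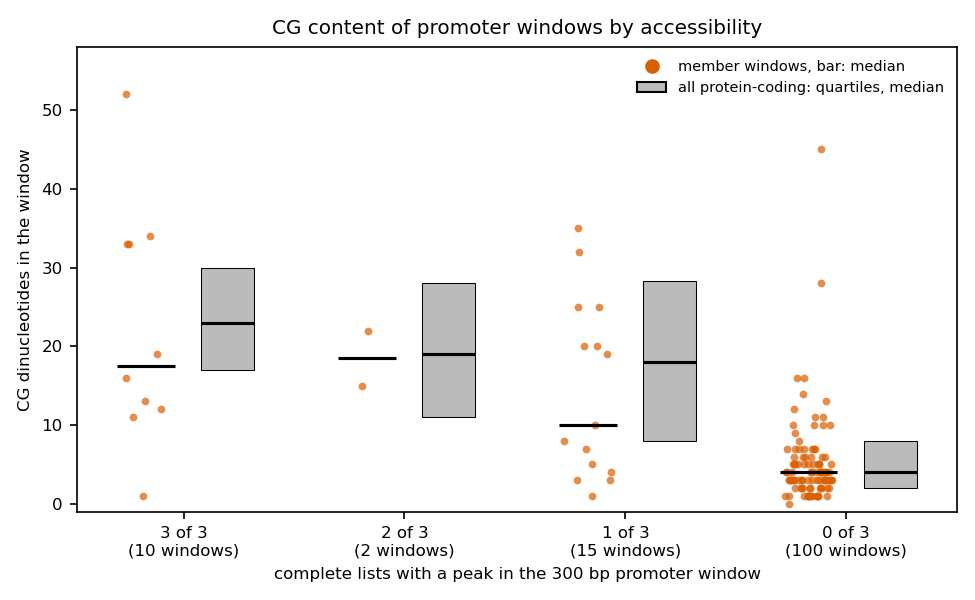
CG dinucleotides per promoter window (vertical axis) by the number of complete lists with a peak in the window. Points are member windows with their median as a bar, and grey boxes give the quartiles and median of all protein-coding windows. The median of member windows is 17.5 with a peak in 3 lists and 4.0 with none.

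Short motifs were counted in the same windows on both strands, as letters only. The Sp1 motif GGGCGG was in 26.8% of member windows against 46.2% of all coding windows, and in 6 of the 10 with a peak in all lists against 21 of the 100 with none, beside 70.1% and 22.3% of the like coding windows. The AP-1 motif TGANTCA was in 18.9% against 6.99%, an NF-kB-like motif (GGG and TCC parted by 4 bases) in 28.3% against 21.0%, the STAT motif TTCNNNGAA in 11% against 7.70% and TATAAA in 19.7% against 12.6%. The cAMP response motif TGACGTCA was in 0 member windows, against 2.23%. The AP-1 motif was in 1 of the 10 member windows with a peak in all lists and 19 of the 100 with none. Of the like coding windows, 3.80% and 10.1% held it. Each motif was counted on its own, and overlaps between motifs were not removed.

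Few members had an end peak in one group and not the other. Over the complete lists 1 member, Ccl20, had an end peak in both EXT libraries and not in RC replicate 3 (0.735%, beside 2.02% of coding genes), and 1, Il18bp, the opposite (0.735%, beside 1.06%). Ccl20, a chemokine that attracts Th17 cells and dendritic cells, had folds of 3.70 and 8.0 in EXT replicates 1 and 2. RC replicate 3 had a peak overlapping the same region (chr1:83117772-83117943, fold 3.76) that missed the end window, and RC replicate 1 had an end peak there with a fold of 6.11. The most frequent pattern short of all lists was an end peak in EXT replicate 2 alone, in 18 members (13.2%, beside 5.43%). An end peak in EXT replicate 2 and RC replicate 3 was next, in 11 (8.09%, beside 4.72%), while 3 had one in EXT replicate 1 and RC replicate 3 (2.21%, beside 1.27%) and 2 in EXT replicate 1 alone (1.47%, beside 1.03%). EXT replicate 2 also has the longest peak list, and with lists of equal length its members with an end peak numbered 49, against 60 in the whole list.

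On chromosome 1, as far as the list of RC replicate 1 reaches, 16 members could be compared between 2 EXT and 2 RC libraries. End peaks were found at 4 and 8 of them in EXT replicates 1 and 2, and at 8 and 6 in RC replicates 1 and 3, beside 59.8, 68.4, 65.8 and 62.2% of the 912 coding genes there. The mean was 6.0 ± 2.83 in EXT and 7.0 ± 1.41 in RC libraries (SD, n = 2 each). The difference of -1.0 was smaller than the spread within the EXT group (two-sided exact permutation p = 1.0 over 6 splits, where the smallest p the design allows is 0.333). It was 1.0 without EXT replicate 1 and -3.0 without EXT replicate 2, and 0.0 and -2.0 without RC replicates 1 and 3, so its sign and size rest on single libraries. Cxcr4 and Il24 had an end peak in all 4 lists, Cxcr2, Il10, Il17a, Il18rap, Il1r1, Il1rl2 and Il20 in none, and 7 members in 1 to 3.

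Members that varied on chromosome 1 did so within the groups as well as between them. Il17f, a T cell cytokine, had a 161 bp peak with the same bounds (chr1:20777821-20777981) in EXT replicate 2 (fold 10.1) and in RC replicates 1, 2 and 3 (folds 19.1, 16.2 and 7.37), and none in EXT replicate 1. Il19, an IL-10 family cytokine, likewise had a 161 bp peak in EXT replicate 2 (fold 11.7) and RC replicates 1 and 3 (folds 19 and 6.79) and none in EXT replicate 1. Il18r1, the ligand-binding chain of the IL-18 receptor, and Il1rl1, the IL-33 receptor ST2, had end peaks in EXT replicate 2 (folds 10.8 and 6.04) and RC replicate 1 (folds 11.3 and 5.66) only. Il1r2, a decoy receptor for IL-1, had end peaks in EXT replicate 2 (fold 6.04) and RC replicates 1 and 3 (folds 7.60 and 3.58), and the EXT replicate 1 peak of the same region (fold 3.37) lay just outside the end window. At Cxcr4 all 4 lists had a peak, with folds of 3.54 and 9.97 in EXT replicates 1 and 2 and 7.64 and 3.76 in RC replicates 1 and 3. Cxcr1, a receptor of neutrophil chemokines, had end peaks in EXT replicate 1 (fold 3.51) and RC replicate 3 (fold 4.04) only.

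Genes that relay interleukin signals had end peaks more often than the members did. Of 19 genes of the IL-1 receptor and NF-kB pathway, 16, 17 and 17 had one in EXT replicate 1, EXT replicate 2 and RC replicate 3 (84.2, 89.5 and 89.5%). Of 15 genes of the JAK-STAT pathway the counts were 11, 13 and 11 (73.3, 86.7 and 73.3%). Among these, Myd88, the adaptor of IL-1 and Toll-like receptors, had folds of 8.13, 12.3 and 9.77, and Stat3, which relays gp130 signals, 11, 14.2 and 12. Only Irak3 of the first list and Stat4 and Stat5b of the second had no end peak in any complete list. Of 11 genes of the chemokine system outside the symbol rule, 6 had an end peak in each list (54.5%, near the 53.7, 61.5 and 56.4% of all coding genes), with Ackr3, the atypical receptor of Cxcl12, Cx3cl1, the neuronal chemokine fractalkine, Xcr1, Gnai2 and Arrb2 in all 3. Cx3cr1, the microglial receptor of fractalkine, had none. Of 17 cytokine and receptor genes that share subunits with interleukins the counts were 9, 8 and 9 (52.9, 47.1 and 52.9%), and of 5 other inflammatory cytokines they were 1, 2 and 3, with Tgfb1 in all lists and Tnf and Ifnb1 in none.

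Marker genes were set beside the neuronal label of the sort. Of 10 neuronal markers 8 had an end peak in each complete list, and Snap25, Syt1, Eno2, Map2, Slc17a7 and Camk2a had one in all 3. Rbfox3, the gene of NeuN, had one in EXT replicate 2 alone, with 61, 91 and 81 peaks inside its span. Of 10 microglial markers 4, 3 and 2 had one in EXT replicate 1, EXT replicate 2 and RC replicate 3. Spi1 had one in all lists, and Cx3cr1, P2ry12, Tmem119, Aif1 and Itgam in none. T and B cell markers had 1, 2 and 1 of 8, endothelial markers 1, 2 and 2 of 6, astrocyte markers 2, 2 and 2 of 6 and oligodendrocyte markers 2, 4 and 2 of 6. The part of such cells in any member's peak was not tested.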

How the data were processed

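The submitters' processing notes name the build mm10 and the aligners HISAT2 2.1.0 and BWA 0.7.17; the aligner of ATAC-seq reads was not given in the sources used here. Peaks were called by the authors in each library with MACS 2.2.4, per the file headers (no control, shift -75 bp, extension 150 bp, all duplicates kept, q cutoff 0.05). The deposited pileup is a coverage signal in tags at the summit, fold enrichment is the authors' ratio to local background, and the deposited −log10 p and q values come from the same background. Values were ranked only within their list.

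Peaks of EXT replicates 1 and 2 and RC replicate 3 were overlapped with RefSeq GRCm38.p6 genes in Python 3.11.15 (pandas 2.3.3, scipy 1.17.1), with sequences from RefSeq tables of that build, after a test on simulated data. The lists of RC replicates 1 and 2 end on chromosome 1 at 166286196 and 37624379, and 1 incomplete line was dropped from each. Genes below the first peak of their chromosome were not scored. Windows hold either end because strand was given for 105 of 137 members only.

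Members and lists were chosen with earlier results of these data known. Named were the 15 members in all 3 lists with the highest mean percentile, the 6 with most span peaks, all clusters, all group-specific and chromosome 1 members, and list genes in all or no lists; other members named singly were chosen after their values were seen. A few genes that this rule would name are not reported here. Alternatives were windows of 500 bp and 2 kb, the 5′ end only, peak summits, lists cut to equal length, a stricter −log10 q of 5, cluster gaps of 100 and 500 kb, no peaks of 160 bp or less, and leaving out each library. Added after seeing the data were no peaks of 165 bp or less and no end peaks shared with another gene.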

Additional observations from a re-analysis of the deposited data

How the results depend on the processing

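Over 15 alternatives, 122 values were classed as the same, 7 as moved and 1 as reversed. Counts were the same within 1.5 times of the main count, and the genome-wide EXT minus RC share within the SD between the EXT libraries. The chromosome 1 difference was classed as the same unless its sign reversed, because its exact permutation p cannot fall below 0.333. That class therefore says little about its size. The genome-wide EXT minus RC share is among the 122 values, but its sign was not stable: 2.206 percentage points with all peaks, -0.368 with lists of equal length, and -6.62 to 11.03 when each EXT library was left out. With the 5′ end only, which 105 members allow, end peaks were found at 19 members in EXT replicate 1, 31 in EXT replicate 2 and 19 in RC replicate 3, at 14 in all 3 lists, and at 6 clustered and 30 isolated members in any list; fewer genes and a single end were scored there. Without peaks of 165 bp or less, an alternative added after seeing the data, 66 members had no peak, against 43 with all peaks. The chromosome 1 difference of EXT minus RC, -1.0 with all 4 lists, ranged over -3.0 to 1.0 when each library was left out, with the positive value without EXT replicate 1 (two-sided exact permutation p = 1.0). No paired analysis was possible because the lists that reach the chromosome 1 members share only replicate number 1 between the groups. A single complete RC list, 2 lists that break off and the lack of read counts per region limit what can be said of EXT against RC.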
